A study of Homo sapiens with 4 samples.

Results

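Numbered C2H2 zinc finger genes (symbols made of ZNF, a number and at most 1 further letter) that the deposited gene table placed on chromosome 19 were followed through 4 RNA-seq libraries of A549, a human lung adenocarcinoma cell line. The members were selected on these measured counts: a gene was kept when its raw read counts summed to at least 40 over the 4 libraries. This gave 161 genes, called members below, out of 266 such entries on the chromosome, 15251 genes of any kind past the same limit and 57905 genes in all. Of the 105 entries left out, 50 had no count in any library and 55 had 1 to 39 counts. Just inside the limit lay ZNF547 with 42 counts and ZNF28 and ZNF506 with 43 each. Just outside it lay ZNF582 with 38 counts and ZNF154 and ZNF418 with 37 each.

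The 4 libraries, 1 per condition, were A549 cells carrying a scramble control (sc), an shRNA against DCBLD2 (shDCBLD2), an empty vector, or a DCBLD2 expression vector (titled OE, and labelled DCBLD2 overexpression). By the study's methods the cell lines were made with lentivirus, the expression vector held the DCBLD2 coding sequence behind an EF1 promoter, and stably expressing cells were selected. The study asked what DCBLD2, a transmembrane receptor-like protein, does to gene expression in these cells. There were no replicate libraries, so no p-value is given and every interval covers counting error only and not the spread between cultures. Total counts ranged from 16601633 to 21537283. DCBLD2 itself had 9859 counts in sc, 4259 in shDCBLD2, 7970 in the empty vector, then 4000 in the library labelled OE. Against its empty vector, DCBLD2 was thus lower in the library that carries the overexpression label (log2 ratio -0.84, 95% interval -0.90 to -0.79), so a direction drawn from that library is a direction of the library and not of a higher DCBLD2 level. Of 6 epithelial genes examined the keratins KRT7, KRT8 and KRT18 were abundant in every library (KRT8 at 102357 to 160585 counts). In sc, shDCBLD2, the empty vector and the library labelled OE, EPCAM had 64, 26, 42 and 88 counts. CDH1 had 1050, 220, 832 and 1103, and KRT19 had 1228, 614, 1163 and 3028. These 3 were lower in shDCBLD2 than in sc by the rule given below, where 6.26% of all counted genes were. EPCAM and KRT19 were higher in the library labelled OE than in its empty vector, where 7.54% were. The lung lineage gene NKX2-1 had 0 counts in 3 libraries and 7 in the library labelled OE, and the leukocyte gene PTPRC had none in any.

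C2H2 zinc finger proteins bind DNA through tandem fingers, each a short fold held by a zinc ion. In primates many of them also carry a KRAB domain, which recruits the scaffold protein TRIM28 and, through it, the histone methyltransferase SETDB1 and the HP1 proteins, and so silences chromatin, often at transposable elements. Their genes arose by repeated local duplication, and human chromosome 19 holds several long clusters of them. Duplication leaves neighbouring genes with like sequences, so reads can be shared between them.

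The promoters of some members are shown first, because the members are otherwise known only by their numbers. RefSeq promoters (250 bases before to 50 after the gene start, GRCh38.p14) were at hand for 144 of the 161 members. Shown are ZNF112, the lowest of 4 neighbours that were low together in the library labelled OE (chr19:44356655-44356954, minus strand), ZNF146, the most counted member called lower there (chr19:36214856-36215155, plus strand), ZNF320, which had counts in that library and in no other (chr19:52897645-52897944, minus strand), and ZNF428, the member with the highest level per length (chr19:43619580-43619879, minus strand). Capitals mark matches, on either strand, to the letters of 3 motifs, ETS (CCGGAAG), ZNF143 and NRF1. Each promoter shown holds a match, but this does not hold for the members in general. Those of ZNF536 and ZNF229, for example, held none of the 3. Of the capital runs below, the ZNF143 match begins with GGG in ZNF112 and ZNF146, where it lies on the opposite strand, and the NRF1 match begins with GCGCA in ZNF146 and ZNF428.
ZNF112: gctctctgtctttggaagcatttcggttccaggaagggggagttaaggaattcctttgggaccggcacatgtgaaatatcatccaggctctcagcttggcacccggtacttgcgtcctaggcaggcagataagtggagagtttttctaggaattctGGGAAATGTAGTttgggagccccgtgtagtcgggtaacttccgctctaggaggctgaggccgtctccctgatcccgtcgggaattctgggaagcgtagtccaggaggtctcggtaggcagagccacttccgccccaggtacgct
ZNF146: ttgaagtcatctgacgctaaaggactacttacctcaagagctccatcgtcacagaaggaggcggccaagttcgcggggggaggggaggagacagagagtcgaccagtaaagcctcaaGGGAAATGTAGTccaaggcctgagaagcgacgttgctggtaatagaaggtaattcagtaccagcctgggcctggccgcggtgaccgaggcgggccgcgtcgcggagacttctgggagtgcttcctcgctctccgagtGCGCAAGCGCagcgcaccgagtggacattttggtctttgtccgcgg
ZNF320: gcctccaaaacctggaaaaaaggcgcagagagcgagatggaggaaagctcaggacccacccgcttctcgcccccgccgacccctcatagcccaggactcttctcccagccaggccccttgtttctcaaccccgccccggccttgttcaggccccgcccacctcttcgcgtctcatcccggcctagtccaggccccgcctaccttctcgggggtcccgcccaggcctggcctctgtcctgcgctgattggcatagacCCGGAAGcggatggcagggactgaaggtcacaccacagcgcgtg
ZNF428: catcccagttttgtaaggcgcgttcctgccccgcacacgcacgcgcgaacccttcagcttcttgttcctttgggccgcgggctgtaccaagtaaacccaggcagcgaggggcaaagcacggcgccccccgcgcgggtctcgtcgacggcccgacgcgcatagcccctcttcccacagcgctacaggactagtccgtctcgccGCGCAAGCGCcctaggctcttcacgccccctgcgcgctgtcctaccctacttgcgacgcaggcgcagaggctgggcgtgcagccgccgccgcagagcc

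The ETS letters stood in 45.8% of the members' promoters, against 37.1% of 186 promoters of counted ZNF genes on other chromosomes, 16.7% of 641 of the other counted genes of chromosome 19, 18.4% of 10180 promoters of all counted genes and 10.7% of all 27305 promoters. The ZNF143 letters stood in 18.1% of the members' promoters, against 9.14%, 3.90%, 3.93% and 1.96% of the same sets. The NRF1 letters stood in 13.9% of them, against 13.98% of the ZNF genes on other chromosomes, 13.7% of the other chromosome 19 genes and 11.4% of all counted genes. The TATA letters (TATAAA) stood in 2.08%, against 4.30%, 5.62% and 5.31%. The members' promoters held a median of 22 CpG dinucleotides, against 24, 26 and 26 in the same 3 sets, at a median GC content of 61%, against 63%, 66.3% and 65.7%. Of the members that were low in the library labelled OE, 17 had a promoter and 35.3% of these held the ETS letters, against 47.9% of the 121 members past neither limit. These are letter matches in a fixed window and do not show that a factor bound there.

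Most members were low. Per length, the median level was 0.70 fragments per kilobase of exon, scaled to library size (FPKM), against 3.55 over all counted genes and 1.41 over 231 counted ZNF genes of other chromosomes, and 96 members lay under 1 FPKM. The highest was ZNF428, with 1 finger by the pattern used, at 36.1 FPKM as the mean of the 4 libraries, followed by ZNF581 at 30.3, ZNF580 at 24.5, ZNF787 at 20.5, ZNF579 at 20.1 and ZNF358 at 19.8 FPKM. None of these 6 carries the KRAB pattern. Translated GENCODE 29 coding sequences, found for 160 members, held a median of 12 fingers, and 128 of the 160 carried a KRAB pattern. The median level was 0.60 FPKM with that pattern and 4.28 FPKM for the 32 members without it. Together the members took 0.134% of all counts in sc (exact binomial 95% interval 0.132 to 0.136), 0.136% in shDCBLD2 (0.134 to 0.137), 0.143% in the empty vector (0.141 to 0.145) and 0.137% in the library labelled OE (0.136 to 0.139). The share was highest in the empty vector, where its interval lay above the other 3. The 10 most counted members took 37.1% of the members' counts in sc, 40.4% in shDCBLD2, 43.5% in the empty vector, then 46.3% in the library labelled OE.

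The first comparison set the library labelled OE against its empty vector. A gene was called higher or lower when the log2 ratio of scaled counts (each with 2 counts added) reached 2-fold and the exact 95% interval of the ratio excluded no change. By this rule 20 members were lower and 7 were higher, that is 12.4% and 4.35% of 161, where 5.57% of all 15251 counted genes were lower and 7.54% were higher. The members' median log2 ratio was -0.21, with 95 of 161 below 0, against -0.04 for all counted genes, -0.11 for ZNF genes of other chromosomes and 0.22 for the 913 other counted genes of chromosome 19. Of the ZNF genes on other chromosomes 5.63% were lower, and of the other chromosome 19 genes 1.64%. Counted genes in general lay at higher levels than the members. Within the 10th to 90th percentile of the members' scaled counts, 18 of 129 members were lower and 3 higher. Of 7336 genes of any kind in that range 7.36% were lower and 11.7% higher. Of 163 ZNF genes on other chromosomes there 6.75% were lower, as were 2.83% of 353 other chromosome 19 genes. In the same order the median log2 ratios were -0.36, -0.09, -0.22 and 0.29. For 78 of the members (48.4%) the lowest of the 4 scaled levels was in this library, which held for 37.9% of all counted genes.

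Base composition moved with this result. Transcript GC was a median of 43.2% in the members, 45.4% in ZNF genes of other chromosomes, 59.9% in other chromosome 19 genes and 49.3% in all counted genes with a value. When all genes were put in 5 equal groups by transcript GC, the median log2 ratio of the genes that were not members went from -0.55 in the group of lowest GC through -0.32, -0.01 and 0.21 to 0.30 in the group of highest GC. The members' medians in the same groups were -0.57 (51 members), -0.30 (63), -0.11 (22), 0.21 (4) and 0.19 (20). In each group the members thus lay close to the other genes. The share called lower was 21.6% of members against 14.2% of other genes in the group of lowest GC, 11.1% against 7.27% in the next and 4.55% against 3.25% in the middle group. Each log2 ratio was then centred on the median of genes of like GC, for the 160 members with a GC value. ZNF229, called lower before centring, has no GC value and could not be called here. After centring 5 members were lower (2.43% of all genes were) and 11 were higher (7.39% of all genes were), and the members' median was -0.05. The 5 were ZNF112, ZNF233, ZNF613, ZNF114 and ZNF799. The part of base composition in the members' lower levels was not tested beyond these values.

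Members with and without the KRAB pattern differed in both ratio and composition. The median log2 ratio was -0.32 over the 128 with the KRAB pattern, of which 17 were lower and 6 higher, and 0.08 over the 32 without it, of which 2 were lower and 1 higher. Their median transcript GC was 42.5% and 60.1%. Both of the KRAB-less members that were lower are among the more counted ones. ZNF146, a protein made of little besides its fingers, had 1402 counts in sc, 1894 in shDCBLD2, 1217 in the empty vector, then 493 in the library labelled OE. That library stood apart below the other 3, with a log2 ratio of -1.15 (95% interval -1.30 to -1.0), and ZNF146 overlaps the counted gene ZNF565. ZNF507 had 468, 623, 346 and 147 counts in the same order, a log2 ratio of -1.07 (-1.37 to -0.80), again lowest in the last library. Other KRAB-less members of high level were within 2-fold. ZNF428 had 952, 1255, 1323 and 1359 counts, a log2 ratio of 0.19 (0.08 to 0.30), and ZNF358 had 623, 664, 775 and 987, a log2 ratio of 0.50 (0.36 to 0.64). ZNF628, another KRAB-less member, had 221, 314, 235 and 369 counts and a log2 ratio of 0.80 (0.56 to 1.05), under the 2-fold limit.

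Among the KRAB members that were lower, ZNF558 (232 counts in sc, 124 in shDCBLD2, 157 in the empty vector, then 58 in the library labelled OE) had a log2 ratio of -1.26 (95% interval -1.74 to -0.84). ZNF766 had 193, 195, 192 and 73 counts in that order and a log2 ratio of -1.22 (-1.65 to -0.85). ZNF181 had 126, 132, 140 and 51 counts and a log2 ratio of -1.28 (-1.80 to -0.83). In these members the 2 controls lay near each other, apart from ZNF558, where sc exceeded the empty vector, and the library labelled OE lay below the other 3. ZNF114 had 58, 97, 58 and 17 counts and a log2 ratio of -1.52 (-2.49 to -0.82), and it overlaps the counted genes C19orf68 and CARD8. ZNF350, known as ZBRK1, a KRAB repressor that binds BRCA1, had 44, 37, 42 and 14 counts and a log2 ratio of -1.33 (-2.42 to -0.53). ZNF613, its neighbour, had 27, 16, 33 and 7 counts and the lowest log2 ratio of the members, -1.85 (-3.51 to -0.88). The remaining lower members were ZNF799, ZNF443, ZNF14, ZNF461, ZNF567, ZNF383, ZNF223, ZNF233, ZNF112, ZNF285, ZNF229 and ZNF432.

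**Figure D1:**
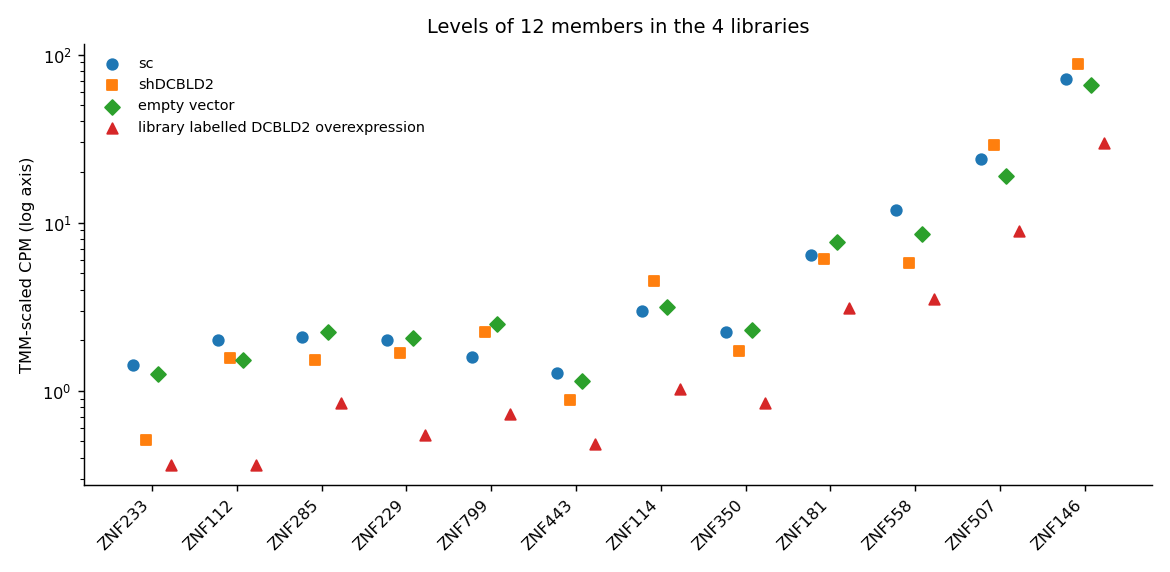
TMM-scaled CPM (log axis) of 12 members that were lower, 1 symbol per library, with no replicates and so no error bars. The triangle of the library labelled OE is the lowest of the 4 in each member shown, and for ZNF233 the shDCBLD2 library lies next above it.

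The members called higher were sparsely counted, and the limit of 40 counts kept some of them with the help of the library labelled OE, so that these had to be high there. Without that library 10 members would have been under the limit, and 5 of the 7 higher members (ZNF846, ZNF536, ZNF649, ZNF320 and ZNF583) are among those 10. Over the other 151 members 2 were higher and 20 lower. ZNF320 had 0 counts in sc, shDCBLD2 and the empty vector, then 56 in the library labelled OE, 20.8-fold above the floor of 3 counts that a count of 0 allows, and the exact 95% lower limit of its log2 ratio against the empty vector was 4.03. Of its transcript's 50-base stretches 75.2% also occur in other genes, and the neighbouring ZNF816 and ZNF888 had 1 and 0 counts in that library. ZNF536, a brain-expressed repressor of neuronal differentiation without a KRAB domain, had 0, 0, 1 and 45 counts and a log2 ratio of 4.15 (95% interval 3.09 to 10.98). ZNF649, a KRAB member, had 9, 4, 8 and 33 counts and a log2 ratio of 1.96 (1.05 to 3.52). In the same library NEFM, a neurofilament gene, had 221 counts, against 1 in sc, 4 in shDCBLD2 and 0 in the empty vector, and the fibroblast collagen gene COL1A2 had 67, against 17, 1 and 0. Of the 10 fibroblast genes examined 6 were past the count limit, and 4 of these were higher here, where 7.54% of all counted genes were. Without this library COL1A2, COL3A1 (9, 18, 6 and 68 counts) and POSTN (0, 0, 0 and 42) would have been under the limit. The same holds for NEFM, so the limit favoured these calls. The summed level of the 10 ranged from 39.2 to 60.5 CPM (counts scaled to library size) in the first 3 libraries and was 86.3 in this one. COL1A1, which was not called, alone had 32.7, 54.0, 35.5 and 63.1 CPM of these sums. DCN had 4 counts. NEFM is also 1 of the 10 marker genes examined of HEK293 cells, the parent of the cells used to make virus. These 10 summed to 345 CPM in sc, 470 in shDCBLD2, 274 in the empty vector, then 271 in this library. Of these sums PEG10 alone had 218, 345, 139 and 81.2 CPM. NEFM and LIN28B (25, 25, 27 and 78 counts) were higher in this library, and INA (658, 867, 550 and 227) was lower. The part of the fibroblast and HEK293 genes in these results was not tested. ZNF235 had 32, 53, 12 and 26 counts and was higher against the empty vector (log2 ratio 1.15, 0.23 to 2.39) but not against sc (-0.05), and it overlaps ZNF227 and ZNF233. ZNF426, with 21, 16, 13 and 26 counts, was past the limit by little (log2 ratio 1.05).

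Position along the chromosome was taken from the start coordinates in the deposited table, whose build is not named. The members were grouped into clusters wherever neighbouring ZNF entries started no more than 1 Mb apart and at least 5 members fell together, which put 147 members into 8 clusters. Cluster 1 ran from 7.07 to 9.90 Mb (13 of 16 entries counted), cluster 2 from 11.6 to 12.8 Mb (9 of 30), cluster 3 from 19.8 to 24.3 Mb (12 of 41) and cluster 4 from 35.033 to 35.455 Mb (5 of 6). Cluster 5 ran from 36.7 to 38.3 Mb (17 of 26), cluster 6 from 44.0 to 45.6 Mb (21 of 26), cluster 7 from 52.1 to 54.1 Mb (19 of 43) and cluster 8 from 56.0 to 59.0 Mb (51 of 61). Clusters 2 and 3 held the most entries without a single count, 13 and 19.

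Median log2 ratios of the members against the empty vector were 0.07 in cluster 1, -0.59 in cluster 2, -0.09 in cluster 3 and -0.33 in cluster 4. They were -0.56 in cluster 5, -0.61 in cluster 6, -0.54 in cluster 7 and 0.03 in cluster 8. The 20 lower members fell 1, 2, 1, 1, 4, 5, 4 and 0 into clusters 1 to 8, with ZNF507 and ZNF114 outside them. The other counted genes in the same intervals had medians of 0.35, -0.02, 0.79, 0.69, -0.71, 0.18, -0.18 and 0.15, below the members' median in cluster 5 alone, from between 1 and 35 genes per cluster. Cluster 8, with 51 members, had no member lower and 1 higher. After centring by GC the medians of the 8 clusters ranged from -0.22 in cluster 2 to 0.34 in cluster 3. Those of clusters 6 (without ZNF229, which has no GC value) and 7 were -0.16 and -0.00.

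**Figure D2:**
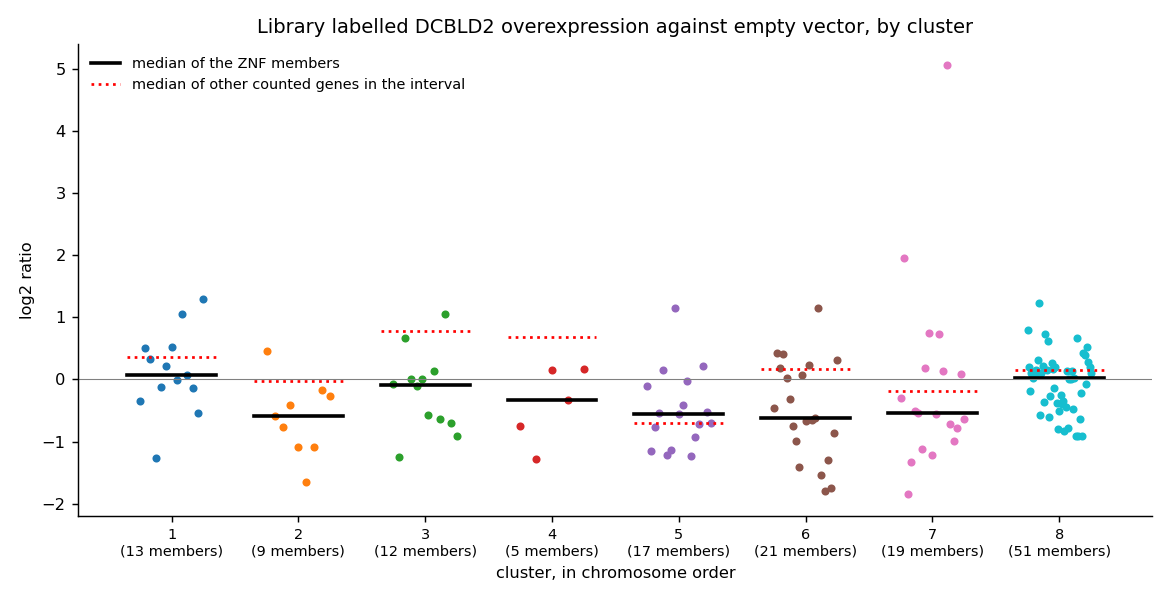
Log2 ratio of the library labelled OE against its empty vector (vertical axis) for each member, by cluster in chromosome order (horizontal axis). Black bars are the members' medians and red dotted bars the medians of other counted genes in the interval. The medians of clusters 2, 5, 6 and 7 lie between -0.61 and -0.54 and those of clusters 1 and 8 near 0.

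The longest row of neighbours called lower lay in cluster 6, between 44754318 and 44952766 in the deposited coordinates, where 4 members in a row passed the limit. ZNF233 (ENSG00000159915) had 28 counts in sc, 11 in shDCBLD2, 23 in the empty vector, then 6 in the library labelled OE, a log2 ratio of -1.53 (95% interval -3.37 to -0.45). ZNF112 (ENSG00000062370), with 39, 34, 28 and 6 counts, had a log2 ratio of -1.80 (-3.63 to -0.77). ZNF285 (ENSG00000267508), with 41, 33, 41 and 14 counts, had a log2 ratio of -1.29 (-2.39 to -0.49). ZNF229 (ENSG00000167383), with 39, 36, 38 and 9 counts, had a log2 ratio of -1.74 (-3.16 to -0.85). In all 4 the library labelled OE was lowest and, ZNF233 apart, the other 3 libraries lay near each other. The wide intervals follow from 6 to 14 counts in the lowest library. The member just before them, ZNF235, was higher by the same rule, and it overlaps ZNF233. Other neighbours called lower together were ZNF799 and ZNF443, which share 24.0% and 37.7% of their 50-base stretches with other genes, ZNF461 and ZNF567, and ZNF613 and ZNF350. Across 139 pairs of adjacent members the Pearson correlation of their log2 ratios was 0.06, the Spearman correlation 0.13, and the signs matched in 75. The points share libraries and some share sequence.

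**Figure D3:**
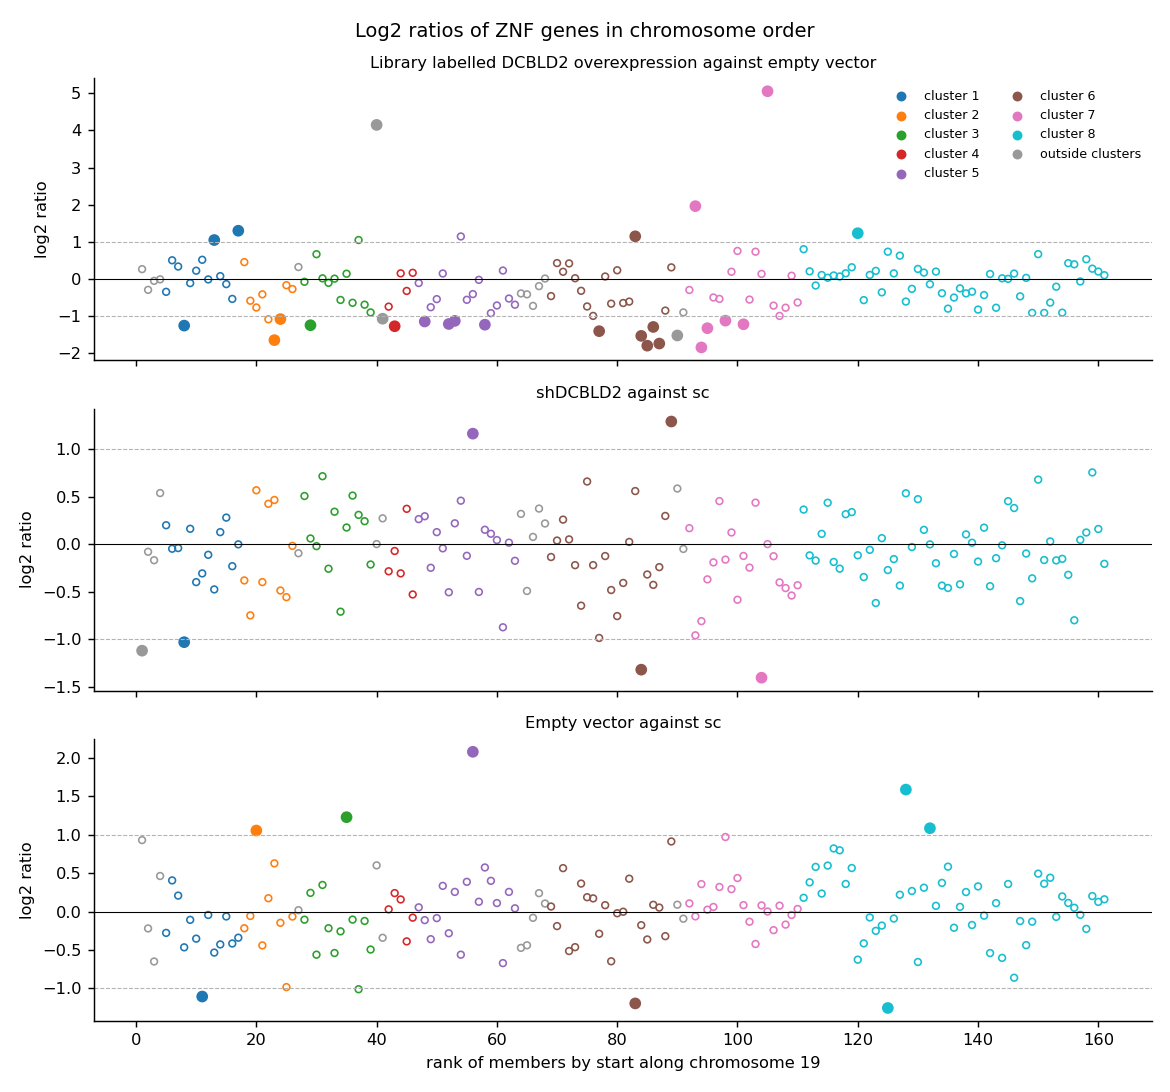
Log2 ratio (vertical axis) of each member in order of start along chromosome 19 (horizontal axis, rank 1 to 161) in 3 comparisons, coloured by cluster. Filled points passed the 2-fold limit, and dashed lines mark 2-fold. The upper panel holds 20 filled points below 0 and 7 above, the middle one 4 and 2, and the lower one 3 and 5.

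The second comparison set shDCBLD2 against sc. Here 4 members were lower (2.48%, where 6.26% of all counted genes were) and 2 were higher (1.24%, where 1.55% of all counted genes were), and the median log2 ratio was -0.10 against 0.00 for all counted genes. ZNF558, with 232 counts in sc and 124 in shDCBLD2, had a log2 ratio of -1.03 (95% interval -1.37 to -0.72), and ZNF233, with 28 and 11, had one of -1.32 (-2.64 to -0.44). These 2 were lower in this comparison and in the first, which share no library, and no member was called in opposite directions. The same shares over all counted genes were not computed, and few members were called here, so neither count is read as a result about the members. ZNF554 had 32 counts in sc, 15 in shDCBLD2, 59 in the empty vector, then 64 in the library labelled OE, so that its log2 ratio was -1.12 (-2.22 to -0.31) while the vector libraries lay above both. ZNF28, one of the members nearest the count limit, had 13 and 4 counts and a log2 ratio of -1.40 (-3.92 to -0.15). It would have been under that limit without the counts of sc. ZNF296, whose mouse counterpart is expressed in pluripotent cells, had 76 counts in sc, 208 in shDCBLD2, 136 in the empty vector, then 152 in the library labelled OE. Its log2 ratio was 1.29 (0.93 to 1.71), but the empty vector also exceeded sc (0.91, 0.52 to 1.36). ZNF585A had 9, 25, 42 and 28 counts and a log2 ratio of 1.16 (0.19 to 2.62), and it overlaps the counted gene ZNF420. From the group of lowest GC to the group of highest, the median log2 ratio was -0.12, -0.10, -0.10, 0.11 and -0.05 for the members and 0.13, 0.06, -0.00, -0.07 and -0.10 for the other genes.

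The 2 control libraries, empty vector against sc, were set side by side to show how far members differed with no DCBLD2 construct. By the study's methods the DCBLD2 coding sequence and the shRNAs were placed in different lentiviral vectors, and blasticidin selection is described for the former. The 2 controls may thus differ in vector and selection, which cannot be told apart here from other differences between the cultures. By the same rule 5 members were higher (3.11%, where 2.76% of all counted genes were) and 3 were lower (1.86%, where 2.31% of all counted genes were), with a median log2 ratio of 0.02 against -0.00. The first comparison shares the empty vector library with this one, and the second shares sc. ZNF585A was highest, with a log2 ratio of 2.08 (1.25 to 3.54), and ZNF823, ZNF738, ZNF547 and ZNF772 were the others. Without the empty vector library 8 members would have been under the count limit. ZNF738 and ZNF547, called higher here, and ZNF223, called lower in the first comparison, are among those 8, so the limit favoured these calls. ZNF559 (69 counts in sc and 29 in the empty vector), ZNF235 (32 and 12) and ZNF460 (64 and 24) were lower, with log2 ratios of -1.11, -1.20 and -1.26. Among well counted members, ZNF580 had 835 counts in sc and 1387 in the empty vector (log2 ratio 0.82, 0.70 to 0.95), and ZNF581 had 764 and 1248 (0.80, 0.67 to 0.93). These 2 overlap each other, so their counts are not independent. ZNF587B went the other way, with 337 and 173 counts (-0.86, -1.14 to -0.60), and 24.1% of its 50-base stretches occur in other genes. These 3 ratios were under the 2-fold limit. Of the 54 members with the highest mean CPM none was called between the controls, at a median of 0.03. Of all counted genes 2.76% were higher and 2.31% lower. At such shares few calls could arise among 54 members, so this count is not read as a result about them.

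When sc served as the control, 23 members were lower and 9 higher in the library labelled OE, where 8.81% and 9.23% of all counted genes were, and 17 of the 20 lower members stayed lower. The 3 that did not were ZNF567, ZNF383 and ZNF432, with log2 ratios of -0.88, -0.66 and -0.15. Of the 7 higher members 3 stayed higher (ZNF536, ZNF649 and ZNF320), while ZNF426, ZNF846 and ZNF583 had log2 ratios of 0.51, 0.96 and 0.60 and ZNF235 lay near 0. At a limit of 1.5-fold in place of 2-fold, 46 members were lower and 9 higher in the first comparison, where 17.0% and 13.4% of all counted genes were. In shDCBLD2 against sc 9 were lower and 4 higher at that limit, where 11.8% and 5.08% of all counted genes were, and in the empty vector against sc 7 were lower and 11 higher, where 6.71% and 7.24% were.

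The partners through which KRAB proteins act lay within the 2-fold limit, apart from 1 gene. All 34 genes of a list of TRIM28, SETDB1, HP1, NuRD and related chromatin silencing factors were past the count limit. In the first comparison 1 of the 34 was lower and none was higher, where 5.57% and 7.54% of all counted genes were. In a list of 34 genes so few calls are not read as a result about the list. Their median log2 ratio was -0.07, against -0.04 for all counted genes. TRIM28, the KRAB corepressor, had 18996 counts in sc, 25989 in shDCBLD2, 19177 in the empty vector, then 16511 in the library labelled OE, a log2 ratio of -0.06 (-0.09 to -0.03). SETDB1, the histone H3 lysine methyltransferase it recruits, had 815, 784, 696 and 602 counts and a log2 ratio of -0.06 (-0.22 to 0.10). The HP1 genes CBX5 and CBX3, at 4421, 4350, 2916 and 1467 counts and at 1659, 2539, 1638 and 821 counts, had log2 ratios of -0.84 and -0.84, under the 2-fold limit but with intervals that excluded 0. MORC3, a nuclear ATPase that takes part in silencing, was the lower one, with 154, 202, 128 and 40 counts and a log2 ratio of -1.49 (-2.08 to -1.0). In the shDCBLD2 comparison none of the 34 was called either way, at a median of 0.12, where 6.26% of all counted genes were lower and 1.55% higher. Of 22 other C2H2 zinc finger genes of chromosome 19 with names that do not begin with ZNF and a number, 13 were past the count limit. In the first comparison 1 of these 13 was lower and 0 were higher, where 5.57% and 7.54% of all counted genes were. The lower one was ZFP82, with 23, 22, 19 and 1 counts.

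Overlapping and near-identical genes limit single values. Of the members 111 overlap some other deposited gene and 47 overlap one past the count limit, 26 of the members overlap another member, and 11 share more than 20% of their 50-base stretches with other genes. Whether the counting used strand or discarded reads with several places is not given in the sources used here. Among the 50 members that overlap no deposited gene, 4 were lower and 2 higher in the first comparison, that is 8.0% and 4.0%, where 5.57% and 7.54% of all counted genes were, and the median log2 ratio was -0.10.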

How the data were processed

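RNA of 4 A549 libraries, 1 per condition, was prepared by the authors with poly(A) selection and an Illumina TruSeq kit, per the labels. The authors deposited raw read counts per gene, with FPKM values beside them that equal the counts scaled by exonic size and library total to within 0.005. The aligner, the counter and its strand setting are not given in the sources used here, and the only build in the submitters' processing notes is mm9, a mouse build, although the gene identifiers are human, so deposited coordinates carry no build name. Counts were scaled with TMM factors (edgeR 4.0.16, R 4.3.3). Log2 ratios used a prior count of 2, and exact Clopper-Pearson 95% intervals covered counting error only. A gene was called at 2-fold with an interval that excluded no change. Without replicates no test across conditions was made. The members and lists were chosen with earlier results of these data known. Named members are the extremes among members with at least 100 counts, the 10 with the highest FPKM, members with at most 3 counts in 1 library and at least 20 in another, and called neighbours, and others were chosen after their values were seen. GENCODE 29 transcripts gave GC, fingers, KRAB patterns and shared 50-base stretches for 160 members, since ZNF229 had no match. Scripts were tested on simulated data. Alternatives were DESeq2 1.42.0 size factors, library totals, other prior counts and limits, equal depth, filters and member lists.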

Additional observations from a re-analysis of the deposited data

How the results depend on the processing

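No paired analysis was possible because each condition had 1 library, and for the same reason no library could be left out. Median log2 ratios of the members ranged from -0.30 to -0.05 for the library labelled OE against its empty vector, from -0.13 to -0.02 for shDCBLD2 against sc and from -0.03 to 0.05 for the empty vector against sc over all alternatives run, and each stayed within the binomial 95% range of its median. The first comparison's 20 lower and 7 higher members became 5 and 11 after centring by transcript GC. This alternative was chosen after seeing the data and left out ZNF229, a lower member without a GC value. They became 4 and 2 among the 50 members that overlap no deposited gene. At a 1.5-fold limit 46 were lower, and a mean of at least 1 CPM left 2 higher. In shDCBLD2 against sc, 1 was higher with a prior count of 5, 2 were lower at 1 CPM, 1 was lower and 0 higher without overlapping members, and 9 were lower and 4 higher at 1.5-fold. In the empty vector against sc, 3 were higher with a prior count of 5, at equal depth or at 1 CPM, 1 was higher and 0 lower without overlapping members, and 11 were higher and 7 lower at 1.5-fold. Without overlapping members, by construction, the members' share of counts was 0.0412% in sc, 0.0406% in shDCBLD2, 0.0420% in the empty vector, then 0.0406% in the library labelled OE, and at 1 CPM it was 0.132% in sc and 0.135% in the library labelled OE. With sc as control ZNF235 reversed to -0.051, where the empty vector had 12 counts and sc 32. A gap of 0.5 or 2 Mb gave 9 or 5 clusters in place of 8. A denominator of protein-coding genes was not run, since no gene type was used here. Other causes were not tested. Members with under 20 counts in a library have intervals that span more than 2-fold.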
